A study of Homo sapiens with 6 samples.

Results

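Interferon-stimulated effector genes were examined after silencing of CTNNB1, the gene of beta-catenin, in AGS, a human line from a gastric adenocarcinoma. The list held 39 genes chosen by name for their known induction by interferon, and 38 of them had a row of the expression table paired with exactly 1 gene symbol, out of 18417 genes measured in this way. The remaining gene, STAT2, is not analysed here. The row with the highest mean stands for a gene, and each of the 38 had a single row. One group of 3 arrays came from cells transfected with CTNNB1 siRNA and the other group of 3 from cells transfected with a control siRNA, with total RNA taken 48 hours later. All cultures received an siRNA, and the labels name no interferon or other agent. The comparison is therefore between siRNAs and not between transfected and untransfected cells. The titles call the arrays biological replicates without naming a passage or a day for any of them, and the p-values measure no more than the spread among these arrays. Array values are given in the order of replicates 1, 2 and 3.

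Interferons are secreted proteins that bind receptors on the cell surface and switch on, through the kinases JAK1 and TYK2, a complex of STAT proteins and IRF9 that enters the nucleus. The complex binds a short DNA element, the interferon-stimulated response element, in front of many genes whose products hinder viruses at entry, translation, genome copying and release. Infected or transfected epithelial cells can also reach many of these genes without interferon, through sensors of foreign RNA and the factors IRF3 and IRF7, and IRF1 binds related DNA elements.

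The silenced gene was checked first. CTNNB1 was 11.92, 11.76 and 11.75 on the log2 scale in the controls and 10.27, 10.78 and 10.58 after CTNNB1 siRNA, lower on each of the arrays labelled as silenced, with a difference of -1.27 (SE 0.17). The silenced gene did not pass the threshold over all rows either (adjusted p = 0.232 in limma, and 0.0219 with array weights). The first CTNNB1 siRNA replicate was unlike the other 5 arrays, with Pearson correlations across all rows of 0.962 to 0.965 against 0.983 to 0.988 among the other arrays. The differences of single genes are therefore given without it as well where that moves them by over 1.5 times. The labelled cell type was checked by its markers. All 10 epithelial markers were above 5.36, the level under which the dimmest 40% of rows lie, on every array, and 15 of 19 measured immune cell markers, among them PTPRC, CD3E and CD14, were below it on each array. LYZ, CD68, NKG7 and CSF1R were above it on each array. LYZ, a lysozyme gene named after its values were seen, had a mean of 13.07 on the controls and 12.8 after CTNNB1 siRNA. CD68 differed by 0.53 (SE 0.23) with overlapping groups, and by 0.78 without CTNNB1 siRNA replicate 1. Of the 19 markers 8 were higher and 11 lower by their means, and CLEC4C differed by -0.49 (SE 0.18) at dim levels. The summed linear level of the 19 was 13.10 to 13.26 as a log2 value on the controls and 12.59 to 13.15 after CTNNB1 siRNA. Without LYZ it was 9.17 to 9.34 and 9.16 to 9.76. In these bulk samples, more cells with an active gene and more RNA per cell cannot be told apart.

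The effector genes as a list lay higher after CTNNB1 siRNA, while no single member passed the test. Of the 38 measured members 33 were higher and 5 lower by their means, against 49.1% of all genes higher. The median log2 difference was 0.27, against -0.0052 over all genes. The mean log2 level of the 38 genes was 6.60, 6.60 and 6.48 on the controls and 6.93, 6.81 and 6.81 after CTNNB1 siRNA. Each CTNNB1 siRNA array lay above each control array, and the difference of the group means was 0.29, with SDs of 0.066 and 0.065 (n = 3 each). Without CTNNB1 siRNA replicate 1 the difference was 0.25.

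**Figure D1:**
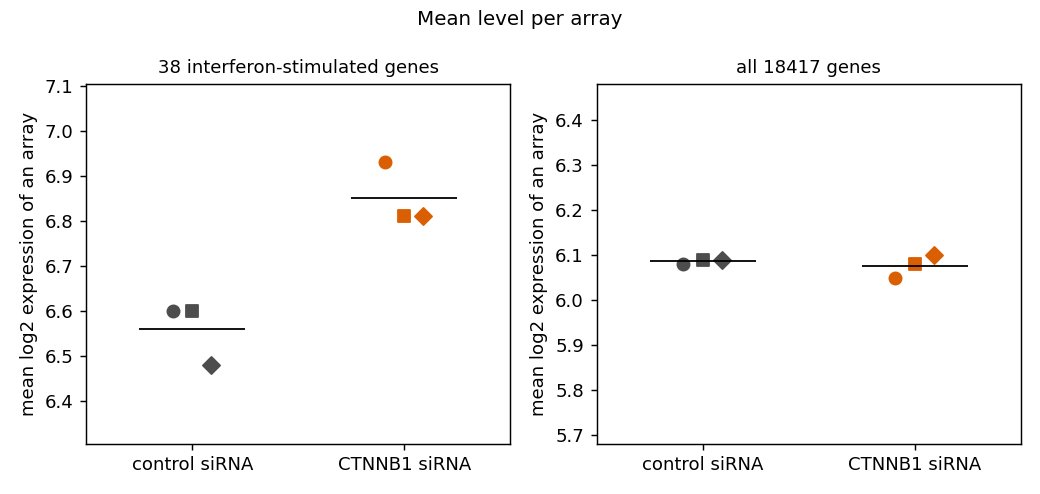
Mean log2 expression of the 38 interferon-stimulated genes (left) and of all 18417 genes (right) on each array, with the mean of each group as a line. On the left the CTNNB1 siRNA arrays sit at 6.81 to 6.93 and the control siRNA arrays at 6.48 to 6.60, and on the right the groups lie within 6.05 to 6.10; both axes span the same log2 range.

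In limma, adjusted over all rows tested, 0 of the 38 members passed 0.05 in either direction, against 0.00543% of all genes higher and 0.0% lower. The members' adjusted p-values in limma ran from 0.816 to 0.996. Before adjustment 8 higher members had a limma p under 0.05, 21.1% of those measured, against 3.07% of all genes, and 0 lower members, against 2.61%. Those 8 were IFIT1, IFIT2, IFIT3, OAS1, OASL, ISG20, IFI27 and PARP9. The groups were apart, with all 3 CTNNB1 siRNA arrays above all 3 controls, for 12 members (31.6%), against 6.86% of all genes, and for 0 members in the opposite direction, against 6.89%. Without CTNNB1 siRNA replicate 1, where fewer arrays make separation easier, 20 members were apart and higher, against 13.4% of all genes. In that fit 36 of 38 were higher, against 49.5%, and 11 had an unadjusted limma p under 0.05, against 4.21%. The members were chosen with earlier results of these arrays in view, so these shares describe the list.

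**Figure D2:**
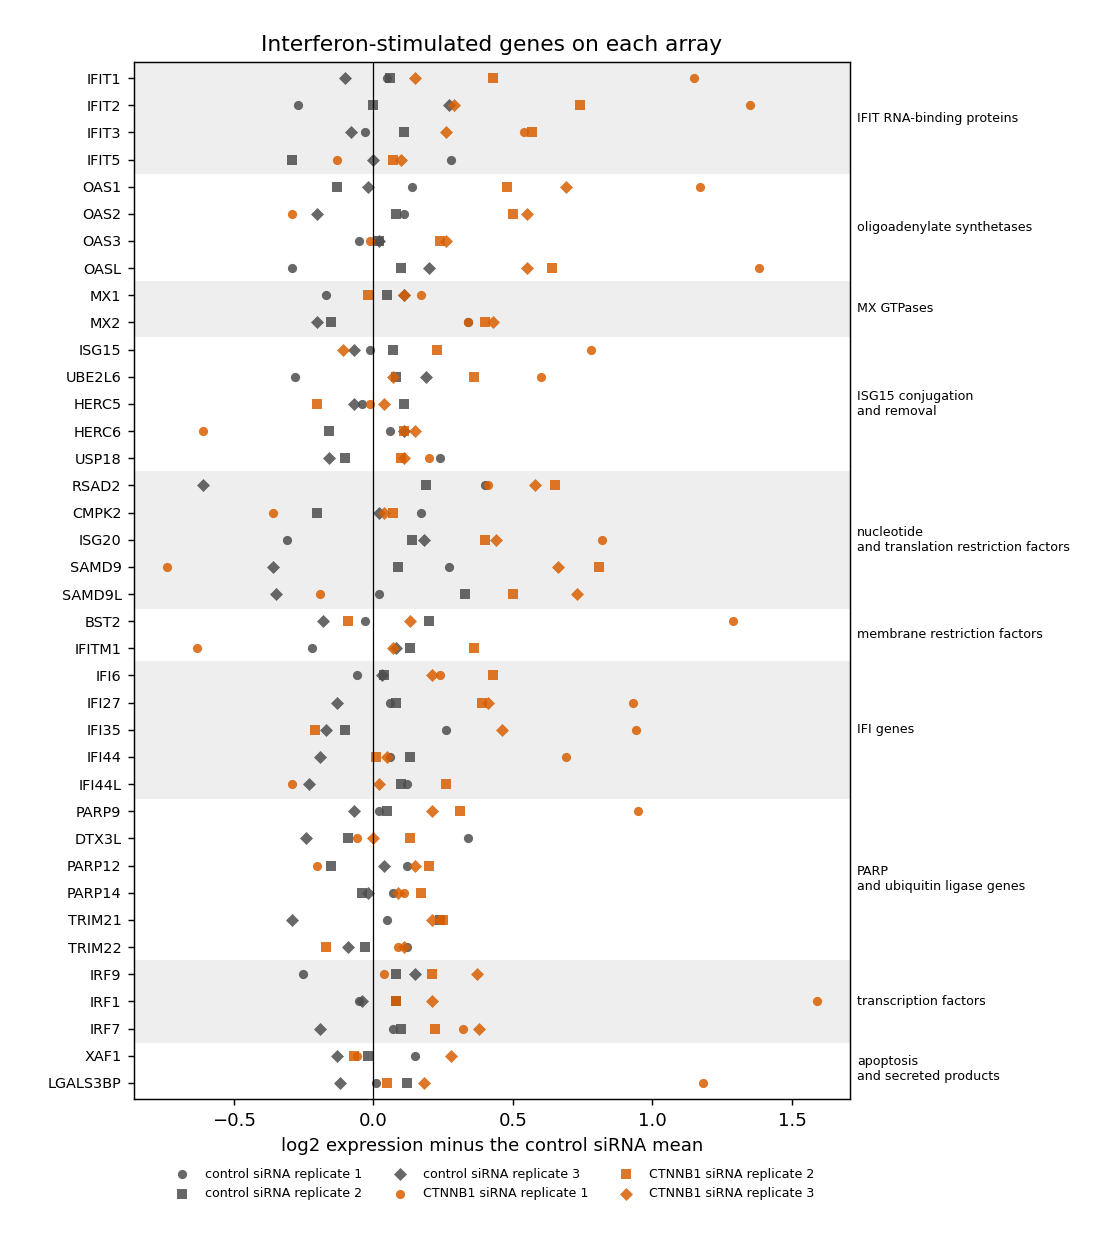
Log2 expression of the 38 measured interferon-stimulated genes on each of the 6 arrays, minus the mean of the 3 control siRNA arrays for that gene, with genes grouped by role. CTNNB1 siRNA replicate 1 is the highest array for 15 genes, among them IFIT1, IFIT2, OAS1, OASL, IRF1 and BST2, and the lowest for 7, among them OAS2, SAMD9 and IFITM1.

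The IFIT proteins bind foreign RNA ends and block their translation, and 3 of the 4 family members had all CTNNB1 siRNA arrays above all controls. IFIT2 was 5.88, 6.15 and 6.42 on the controls and 7.50, 6.89 and 6.44 after CTNNB1 siRNA. The lowest CTNNB1 siRNA array lay barely above the highest control, and replicate 1 was far above the rest. Its log2 difference was 0.79 (SE 0.27), a 1.73-fold higher mean, and 0.52 without that replicate. IFIT3 was 5.81, 5.95 and 5.76 on the controls and 6.38, 6.41 and 6.10 after CTNNB1 siRNA, an even shift with a difference of 0.45 (SE 0.15), and 0.41 without replicate 1. IFIT1, whose array values are given after they were seen, was 8.38, 8.39 and 8.23 on the controls and 9.48, 8.76 and 8.48 after CTNNB1 siRNA. Its difference of 0.58 (SE 0.25) was 0.29 without replicate 1, so that array carries much of its size. IFIT5 differed by 0.015 (SE 0.18), with a 95% confidence interval of -0.40 to 0.43, and by 0.086 without replicate 1.

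The oligoadenylate synthetases make a short signal molecule on double-stranded RNA that activates the nuclease RNase L. All 4 genes of the family were higher by their means, and 2 had groups apart, against 6.86% of all genes apart and higher. Without CTNNB1 siRNA replicate 1, where separation is easier, all 4 were apart and higher, against 13.4% of all genes. OAS1 was 8.90, 8.63 and 8.74 on the controls and 9.93, 9.24 and 9.45 after CTNNB1 siRNA. Its groups were well apart, with a difference of 0.78 (SE 0.20; 95% confidence interval 0.33 to 1.24), and it had the smallest limma p of the members (unadjusted p = 0.00426, rank 81 among all genes). OASL, which encodes a family member without synthetase activity that aids RNA sensing, was 6.31, 6.70 and 6.80 on the controls and 7.98, 7.24 and 7.15 after CTNNB1 siRNA. This was the largest difference of the 38, 0.85 (SE 0.25), a 1.81-fold higher mean. Without CTNNB1 siRNA replicate 1 the differences of OAS1 and OASL were 0.59 and 0.60. OAS2, whose array values are given after they were seen, was 6.68, 6.65 and 6.37 on the controls and 6.28, 7.07 and 7.12 after CTNNB1 siRNA. Replicate 1 was its lowest array and replicates 2 and 3 its highest, so a difference of 0.25 (SE 0.24) over all arrays was 0.53 without replicate 1. OAS3 differed by 0.17 (SE 0.14), and by 0.26 without that replicate.

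The MX genes encode dynamin-like GTPases that trap viral nucleoproteins and capsids. MX2 was 6.58, 6.09 and 6.04 on the controls and 6.58, 6.64 and 6.67 after CTNNB1 siRNA. Control replicate 1 touched the CTNNB1 siRNA group while the other controls lay clearly below it, and the difference was 0.39 (SE 0.17). MX1 was 4.17, 4.39 and 4.45 on the controls and 4.51, 4.32 and 4.45 after CTNNB1 siRNA, a difference of 0.091 (SE 0.14) with overlapping groups. Without CTNNB1 siRNA replicate 1 the difference was 0.049. MX1 is 1 of 6 dim members, with HERC5, HERC6, SAMD9L, TRIM22 and XAF1, and array signal at such levels is partly background, so a small value does not show that such a gene stayed the same.

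ISG15 is a ubiquitin-like protein that is joined to other proteins through the conjugating enzyme UBE2L6 and the ligase HERC5 and is removed by USP18, which also dampens the interferon receptor. Neither these genes nor HERC6, which was listed with them, had groups apart. UBE2L6 was 6.83, 7.19 and 7.30 on the controls and 7.71, 7.47 and 7.18 after CTNNB1 siRNA, a difference of 0.35 (SE 0.19) that was 0.22 without replicate 1. ISG15 was 6.24, 6.32 and 6.18 on the controls and 7.03, 6.48 and 6.14 after CTNNB1 siRNA. The array values of ISG15 include both the highest and the lowest of the 6 in the CTNNB1 siRNA group, and its difference of 0.30 (SE 0.22) was 0.066 without replicate 1. USP18 differed by 0.14 (SE 0.15), and its probes may also catch a near-identical copy, since a further row is paired with USP18 and other genes. HERC5 and HERC6 differed by -0.056 (SE 0.14) and -0.12 (SE 0.22), both at dim levels, and HERC6 by 0.13 without replicate 1.

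Among genes that act on nucleotides, RNA or translation, ISG20, an exonuclease gene, was 5.31, 5.76 and 5.80 on the controls and 6.44, 6.02 and 6.06 after CTNNB1 siRNA. All 3 CTNNB1 siRNA arrays were above the controls, with a difference of 0.55 (SE 0.19), and 0.41 without replicate 1. RSAD2 encodes viperin, which makes a chain-ending nucleotide. It was 6.49, 6.28 and 5.48 on the controls and 6.50, 6.74 and 6.67 after CTNNB1 siRNA. Its groups were only just apart and the difference of 0.55 (SE 0.26) was 0.25 without control siRNA replicate 3, the low array. SAMD9, a translation inhibitor gene whose array values are given after they were seen, was 6.78, 6.60 and 6.15 on the controls and 5.77, 7.32 and 7.17 after CTNNB1 siRNA. As for OAS2, replicate 1 was the lowest of all arrays, and the difference was 0.25 (SE 0.39) with it and 0.74 (SE 0.20) without it. Its neighbour and relative SAMD9L differed by 0.34 (SE 0.27), and by 0.61 without replicate 1, at dim levels. CMPK2, a mitochondrial nucleotide kinase gene, differed by -0.082 (SE 0.17), and by 0.056 without replicate 1.

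BST2 and IFITM1 encode membrane proteins that hold back budding and entering viruses. BST2 was 5.37, 5.60 and 5.22 on the controls and 6.69, 5.31 and 5.53 after CTNNB1 siRNA, so a single array was high, and the difference of 0.44 (SE 0.34) was 0.019 without it. IFITM1 was 11.45, 11.80 and 11.75 on the controls and 11.04, 12.03 and 11.74 after CTNNB1 siRNA, a difference of -0.064 (SE 0.25), and 0.22 without replicate 1. IFITM1 shares much of its sequence with IFITM2 and IFITM3, so its row may also catch their transcripts.

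The IFI genes were named for their induction by interferon, and IFI27 and IFI6 encode small hydrophobic proteins of cell organelles. IFI27 was 7.75, 7.77 and 7.56 on the controls and 8.62, 8.08 and 8.10 after CTNNB1 siRNA. The groups were apart by a clear gap, with a difference of 0.57 (SE 0.18) and 0.39 without replicate 1. IFI6 was 11.12, 11.22 and 11.21 on the controls and 11.42, 11.61 and 11.39 after CTNNB1 siRNA, a small, even difference of 0.29 (SE 0.13) that was 0.32 without replicate 1. IFI35 differed by 0.40 (SE 0.28), IFI44 by 0.25 (SE 0.21) and IFI44L by -0.0041 (SE 0.19), all with overlapping groups. Without replicate 1 these were 0.13, 0.03 and 0.14, so the value of IFI44 rested on that array. The value of IFI35 also moved the other way, to 0.7 without CTNNB1 siRNA replicate 2, its lowest array.

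PARP9 works in a complex with the ubiquitin ligase DTX3L that modifies histones and viral proteins, and PARP12 and PARP14 transfer single ADP-ribose units. PARP9 was 7.07, 7.10 and 6.98 on the controls and 8.0, 7.36 and 7.26 after CTNNB1 siRNA, apart, with a difference of 0.49 (SE 0.21) that was 0.26 without replicate 1. DTX3L differed by 0.024 (SE 0.18) and PARP12 by 0.047 (SE 0.16), or by 0.066 and 0.17 without replicate 1. PARP14 had groups apart at a difference of only 0.12 (SE 0.13). TRIM21, an antibody receptor of the cytosol, was 6.30, 6.49 and 5.96 on the controls and 6.49, 6.50 and 6.46 after CTNNB1 siRNA. The CTNNB1 siRNA arrays were close together and 1 control was low. Its difference of 0.23 (SE 0.17) was 0.085 without control siRNA replicate 3. TRIM22 differed by 0.011 (SE 0.15) at dim levels, and by -0.03 without CTNNB1 siRNA replicate 1.

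Of the transcription factors, IRF7, which amplifies the response, was 6.23, 6.26 and 5.97 on the controls and 6.48, 6.38 and 6.54 after CTNNB1 siRNA, apart by a narrow gap, with a difference of 0.31 (SE 0.14). IRF1 was 6.13, 6.26 and 6.14 on the controls and 7.77, 6.26 and 6.39 after CTNNB1 siRNA. The value of 7.77 on replicate 1 stands far above the rest, and the difference of 0.63 (SE 0.37) was 0.15 without it. IRF9, the DNA-binding part of the complex, differed by 0.21 (SE 0.17). LGALS3BP, which encodes a secreted glycoprotein, was 8.17, 8.28 and 8.04 on the controls and 9.34, 8.21 and 8.34 after CTNNB1 siRNA, a difference of 0.47 (SE 0.29) that was 0.11 without replicate 1. XAF1, which counters an inhibitor of apoptosis, was 5.48, 5.31 and 5.20 on the controls and 5.27, 5.26 and 5.61 after CTNNB1 siRNA. Its difference of 0.051 (SE 0.16) was 0.11 without replicate 1.

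**Figure D3:**
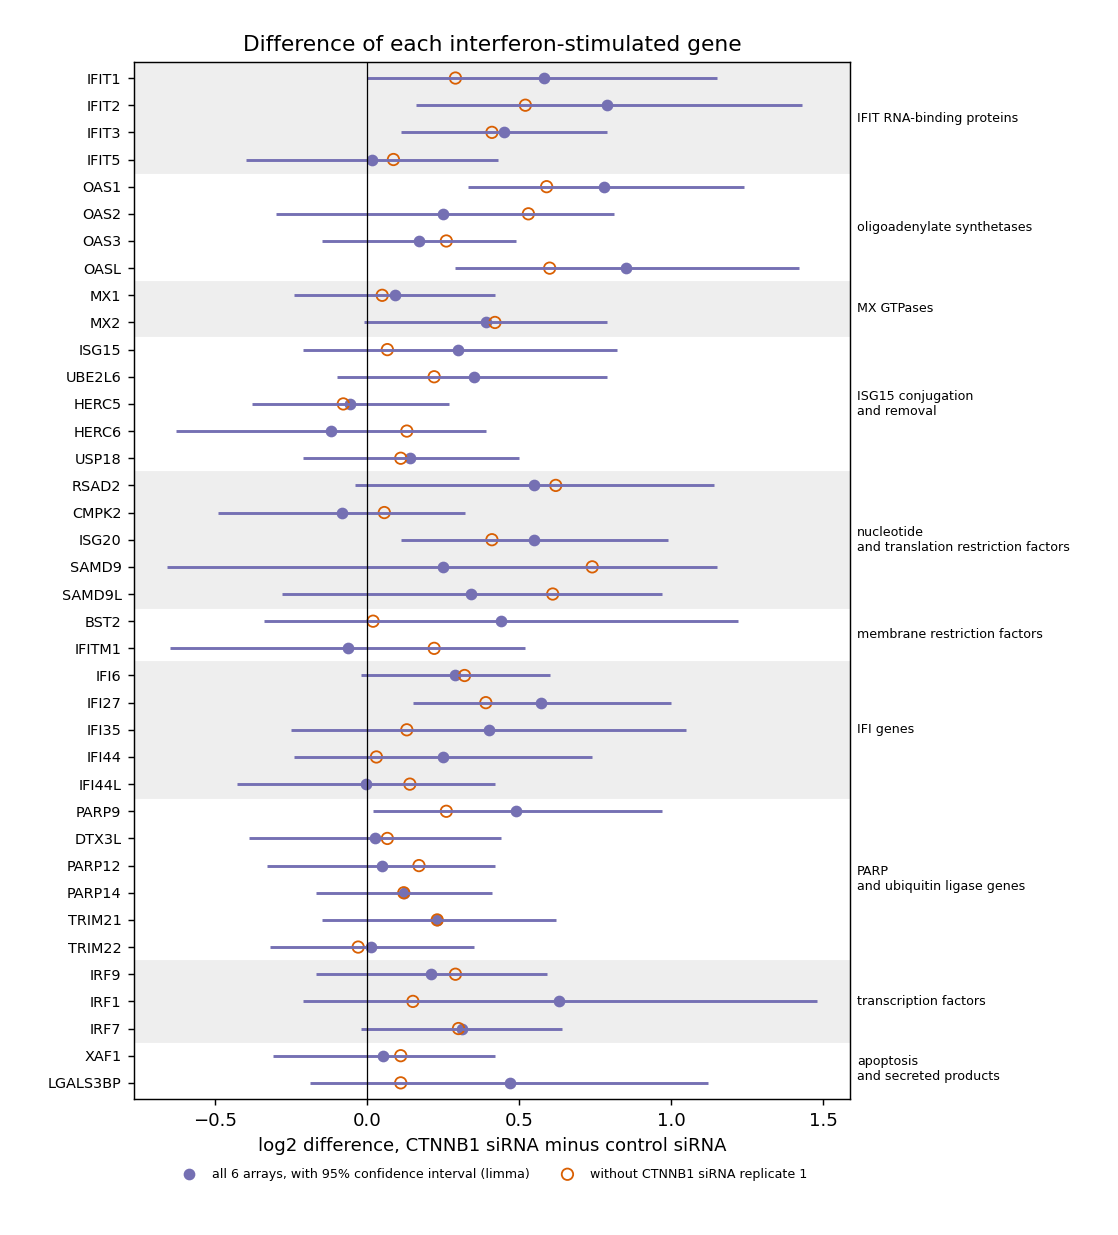
Log2 difference of each of the 38 genes, CTNNB1 siRNA minus control siRNA, over all 6 arrays with the 95% confidence interval of limma (filled points and lines) and without CTNNB1 siRNA replicate 1 (open circles). OAS1, OASL, IFIT2, IFIT3, ISG20, IFI27 and RSAD2 keep, like MX2, differences of 0.39 or more without that array, BST2 and ISG15 come close to 0, and OAS2, SAMD9 and SAMD9L move to 0.53 or more.

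CTNNB1 siRNA replicate 1 thus split the list. It was the highest of the 6 arrays for 15 of the 38 members (39.5%), against 24.6% of all genes, and the lowest for 7 (18.4%), against 31.4% of all genes. The 7 were OAS2, HERC6, CMPK2, SAMD9, IFITM1, IFI44L and PARP12. By the count of members above every control array, replicate 1 had 20 of 38 and replicates 2 and 3 had 25 each. Among all 18417 genes the counts on replicates 1 to 3 were 5644, 4296 and 5162, so replicate 1 had the highest background. The median of the members relative to the control mean was 0.235, 0.242 and 0.207 on replicates 1 to 3, and 0.379, 0.253 and 0.212 over the 32 members that are not dim. Replicate 1 was thus the highest by its median only when the dim members were left out.

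Members that lie close together in the genome were set against each other as a log2 ratio on each array, in 12 pairs. The pairs and the gene placed first were listed by hand with earlier results of these arrays in view. IFIT5, OAS1 and PARP9 recur, and pairs such as OAS2 against OAS3 were not taken. No share over other gene pairs was computed, so the count and the p-values below only describe these pairs. In 4 pairs the CTNNB1 siRNA ratios all lay above the control ratios, which gives the 2-sided exact permutation p of 0.1, the smallest that 3 arrays against 3 allow (0.3 after Benjamini-Hochberg adjustment over the 12 pairs). RSAD2 and CMPK2, direct neighbours on chromosome 2, had control ratios of -0.17, -0.01 and -1.02 and ratios of 0.37, 0.18 and 0.13 after CTNNB1 siRNA. The difference was 0.63, and 0.56 without CTNNB1 siRNA replicate 1, but 0.32 without control siRNA replicate 3, the low array. PARP9 against DTX3L, direct neighbours on chromosome 3, gave 0.47, and 0.20 without replicate 1, with a gap of almost nothing between replicates 2 and 3 and the highest control. PARP9 against PARP14 gave 0.38 and 0.14, and OAS1 against OAS3 on chromosome 12 gave 0.62 and 0.33. OAS1 against OAS2 gave 0.53, and 0.06 without replicate 1 (exact permutation p = 0.5). For IFIT1, IFIT2 and IFIT3 against IFIT5 the ratios were higher by 0.56, 0.78 and 0.44 with overlapping groups (exact permutation p = 0.2, 0.3 and 0.2). Without CTNNB1 siRNA replicate 1 they were higher by 0.20, 0.43 and 0.32. A ratio of this kind compares the shifts of 2 genes and does not show that either gene stayed the same. With 3 arrays against 3, the exact permutation test could not show unequal shifts for any pair.

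**Figure D4:**
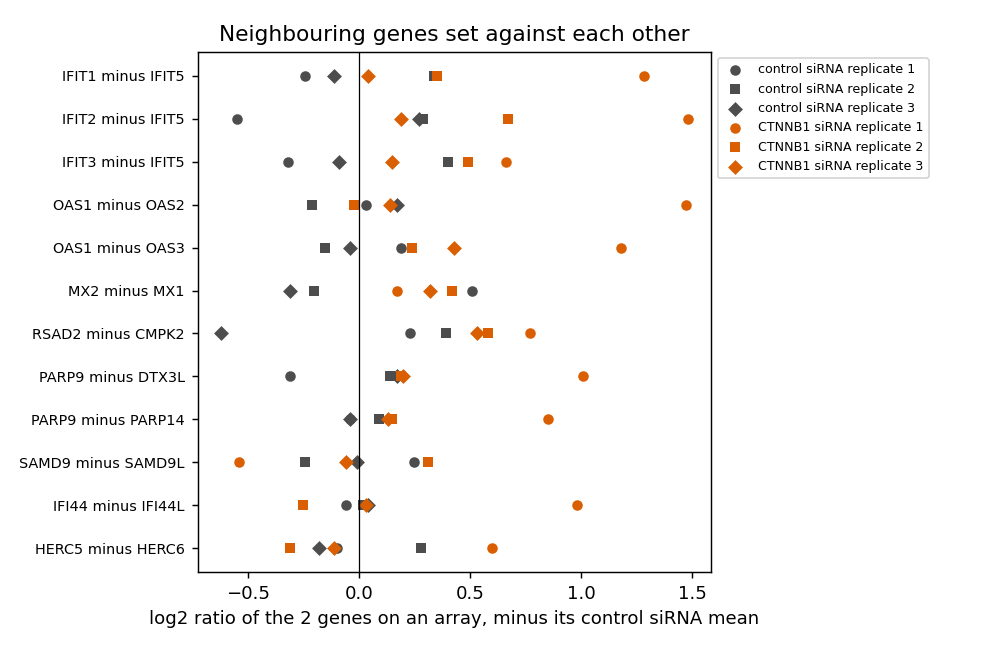
Log2 ratio of neighbouring interferon-stimulated genes on each of the 6 arrays, minus the mean ratio of the 3 control siRNA arrays. The groups are apart for OAS1 against OAS3, RSAD2 against CMPK2, PARP9 against DTX3L and PARP9 against PARP14, and CTNNB1 siRNA replicate 1 is the highest array in each of these.

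The genes of the list share a feature that the choice by name did not use directly, the response element in the promoter. RefSeq promoter windows of GRCh38.p14, 250 bases before to 50 after a start site, were at hand for 32 of the 39 genes. IFIT2, OAS2, OASL, MX2, USP18, TRIM22 and IRF7 had none. The core of the response element was searched as GAAANNGAAA on both strands (TTTCNNTTTC on the opposite one), and the gamma-activated site, the element of the interferon gamma response, as TTCNNNGAA, which reads the same on both strands. The response element was found in 22 of the 32 genes (68.8%), against 4.38% of 27305 genes, and the gamma-activated site in 9 (28.1%), against 9.38%. By windows of the same length the shares were 60.5% of 43 against 3.57% of 35116 for the response element, and 23.3% against 7.66% for the gamma-activated site. Of 39 different matches of the response element, 5 overlapped a match of the gamma-activated site.

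The stretches below lie upstream of the start site and run 5′ to 3′ along the gene, with matches of GAAANNGAAA or its opposite strand in capitals. The IFIT genes are shown because members of 1 family that carry the element differed by 0.58, 0.45 and 0.015. Without CTNNB1 siRNA replicate 1 they differed by 0.29, 0.41 and 0.086.
IFIT1: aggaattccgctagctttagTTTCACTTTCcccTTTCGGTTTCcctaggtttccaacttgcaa
IFIT3: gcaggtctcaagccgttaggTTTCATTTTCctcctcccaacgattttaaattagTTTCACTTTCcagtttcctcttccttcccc
IFIT5: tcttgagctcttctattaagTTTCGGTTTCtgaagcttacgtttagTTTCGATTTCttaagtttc
They lie at IFIT1 at chr10:89392487-89392549 (plus strand), IFIT3 at chr10:89327821-89327904 (plus strand) and IFIT5 at chr10:89414503-89414567 (plus strand). IFIT5 has a further match that crosses its start site and is not marked, so it holds 3 in all, as many as IFI6 and HERC5, and these 3 genes differed by 0.015, 0.29 and -0.056.

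The next genes had groups apart and matches in different number and orientation.
IFI6: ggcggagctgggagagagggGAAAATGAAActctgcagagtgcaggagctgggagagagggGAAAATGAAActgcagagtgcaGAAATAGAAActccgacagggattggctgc
IFI27: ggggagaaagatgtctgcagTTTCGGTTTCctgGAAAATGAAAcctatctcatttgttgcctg
ISG20: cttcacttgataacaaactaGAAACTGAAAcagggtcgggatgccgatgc
RSAD2: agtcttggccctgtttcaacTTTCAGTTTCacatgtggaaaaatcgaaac
They lie at IFI6 at chr1:27672256-27672368 (minus strand), IFI27 at chr14:94110608-94110670 (plus strand), ISG20 at chr15:88638927-88638976 (plus strand) and RSAD2 at chr2:6877612-6877661 (plus strand). IFI6 carries the same 10 bases in a repeated stretch. The matches of IFI27 lie on opposite strands and both overlap a match of the gamma-activated site.

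PARP9, PARP14 and ISG15 are shown because PARP9 and PARP14 lie near each other with unlike values and the difference of ISG15 rested on 1 array.
PARP9: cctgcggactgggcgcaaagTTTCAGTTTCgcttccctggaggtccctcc
PARP14: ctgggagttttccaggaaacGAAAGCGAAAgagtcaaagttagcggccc
ISG15: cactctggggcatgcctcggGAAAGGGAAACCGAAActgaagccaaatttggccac
They lie at PARP9 at chr3:122564312-122564361 (minus strand), PARP14 at chr3:122680790-122680838 (plus strand) and ISG15 at chr1:1013364-1013419 (plus strand). The match of PARP9, chr3:122564332-122564341, is the same stretch of DNA that is matched in front of DTX3L, which is read in the opposite direction, and the genes differed by 0.49 and 0.024. In ISG15 the 2 matches overlap.

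OAS1 and IRF1 had no match of the response element in these windows, and their gamma-activated site is in capitals.
OAS1: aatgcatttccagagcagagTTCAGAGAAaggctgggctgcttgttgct
IRF1: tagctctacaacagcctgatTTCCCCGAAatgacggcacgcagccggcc
They lie at OAS1 at chr12:112906774-112906822 (plus strand) and IRF1 at chr5:132490869-132490917 (minus strand). These differed by 0.78 and 0.63, and no match says only that the letters are not in this window.

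Among the members, no steady order of the differences went with the response element. The 22 with a match had a median log2 difference of 0.25, 19 higher and 8 (36.4%) with groups apart. The 9 measured without one had a median of 0.34, 7 higher and 1 (11.1%), OAS1, apart. The order of the medians turned without CTNNB1 siRNA replicate 1, to 0.20 for members with a match and 0.15 for those without. Outside the list, 565 genes with a match had a median of -0.0074 and 39 (6.90%) with groups apart and higher. The 13643 genes without a match had a median of -0.0081 and 6.61% apart and higher. The share of genes with the element that were apart was thus near that of genes without it.

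The path leading to the effector genes was followed from ligand to factor in lists chosen by function. None of their genes passed limma's adjusted threshold over all rows. Of 12 measured interferon genes 6 were higher and 6 lower, with a median of 0.016, and 9 were dim. Without CTNNB1 siRNA replicate 1 the median was 0.052. IFNB1 was 2.66, 3.24 and 3.22 on the controls and 2.75, 2.37 and 2.60 after CTNNB1 siRNA, a difference of -0.47 (SE 0.20) at dim levels and with overlapping groups. IFNL2 and IFNL3, near-identical type III interferon genes whose probes may catch each other's transcripts, differed by 0.36 (SE 0.20) and 0.31 (SE 0.18) with overlapping groups. Without CTNNB1 siRNA replicate 1 these were 0.53 and 0.49. IFNL1 differed by 0.083 (SE 0.34), also with overlapping groups, and by 0.51 without that replicate. IFNL1, IFNL2 and IFNL3 are the measured interferon genes that are not dim, all higher by their means, while the dim ones went both ways. IFNG differed by 0.32 (SE 0.24).

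All 9 receptor and JAK kinase genes were higher by their means, with a median of 0.25, and 4 (44.4%) had groups apart, against 49.1% higher and 6.86% apart and higher among all genes. The median was 0.23 and 8 were higher without CTNNB1 siRNA replicate 1. IL10RB, a chain of the type III interferon receptor, was 7.85, 8.20 and 8.32 on the controls and 8.81, 8.58 and 8.59 after CTNNB1 siRNA, a clear gap with a difference of 0.54 (SE 0.17). IFNGR1, a chain of the interferon gamma receptor, was 7.74, 7.42 and 7.44 and then 8.81, 7.88 and 7.77, a difference of 0.62 (SE 0.27) that was 0.29 without replicate 1. IFNAR2, a chain of the type I receptor, differed by 0.35 (SE 0.16) and TYK2 by 0.40 (SE 0.19), or by 0.23 without replicate 1 for TYK2. IFNAR1, the other type I chain, differed by 0.065 (SE 0.22) and by -0.16 without replicate 1. JAK1 differed by 0.071 (SE 0.13), and by 0.14 without that replicate.

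Of the 5 measured STAT genes 3 were higher, with a median of 0.085, and 0.051 without CTNNB1 siRNA replicate 1. STAT3 differed by -0.00075 (SE 0.13), or by 0.051 without that replicate, and STAT5A by 0.40 (SE 0.15) at dim levels. IRF8, an interferon regulatory factor best known from myeloid cells, was 7.06, 7.19 and 7.28 on the controls and 8.63, 7.71 and 7.87 after CTNNB1 siRNA. Its difference of 0.89 (SE 0.24), or 0.61 without replicate 1, was as large as that of the highest effector genes. IRF3 differed by 0.058 (SE 0.18), and by -0.086 without replicate 1. Of 12 negative regulators 5 were higher and 7 lower, with a median of -0.013. The groups were apart for 2 of the 12, both lower, against 6.89% of all genes apart and lower, a count too small to set them off. PTPN2, a phosphatase that acts on JAK and STAT proteins, differed by -0.49 (SE 0.20), and SOCS2 by -0.39 (SE 0.18). SOCS3, a STAT-induced inhibitor, differed by 0.50 (SE 0.24) with overlapping groups.

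Of 15 sensor and adaptor genes 9 were higher, with a median of 0.07. IFIH1, the sensor of long double-stranded RNA, was 6.34, 6.38 and 6.30 on the controls and 6.72, 6.99 and 6.49 after CTNNB1 siRNA, apart, with a difference of 0.40 (SE 0.16). DHX58, its regulator, differed by 0.33 (SE 0.14) at dim levels, and CGAS, the cytosolic DNA sensor, by -0.36 (SE 0.22), or by -0.57 without CTNNB1 siRNA replicate 1.

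Of 41 measured interferon-stimulated genes outside the 39, 30 (73.2%) were higher, with a median of 0.16, against 49.1% of all genes, and 10 (24.4%) had groups apart, all higher, against 6.86% of all genes. APOL1, an apolipoprotein with pore-forming activity, was 6.65, 6.82 and 7.08 on the controls and 8.93, 7.78 and 7.82 after CTNNB1 siRNA, the largest of them at 1.32 (SE 0.31), a 2.50-fold higher mean, and 0.94 without replicate 1. APOL6 differed by 0.92 (SE 0.19) and DDX60L, a helicase gene, by 0.79 (SE 0.17), each by a like amount, 0.90 and 0.83, without replicate 1. APOL6 is dim. DDX60, the neighbouring helicase gene, differed by 0.98 (SE 0.25). IFIH1, EIF2AK2 and ADAR are counted in this list as well as among the sensors.

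**Figure D5:**
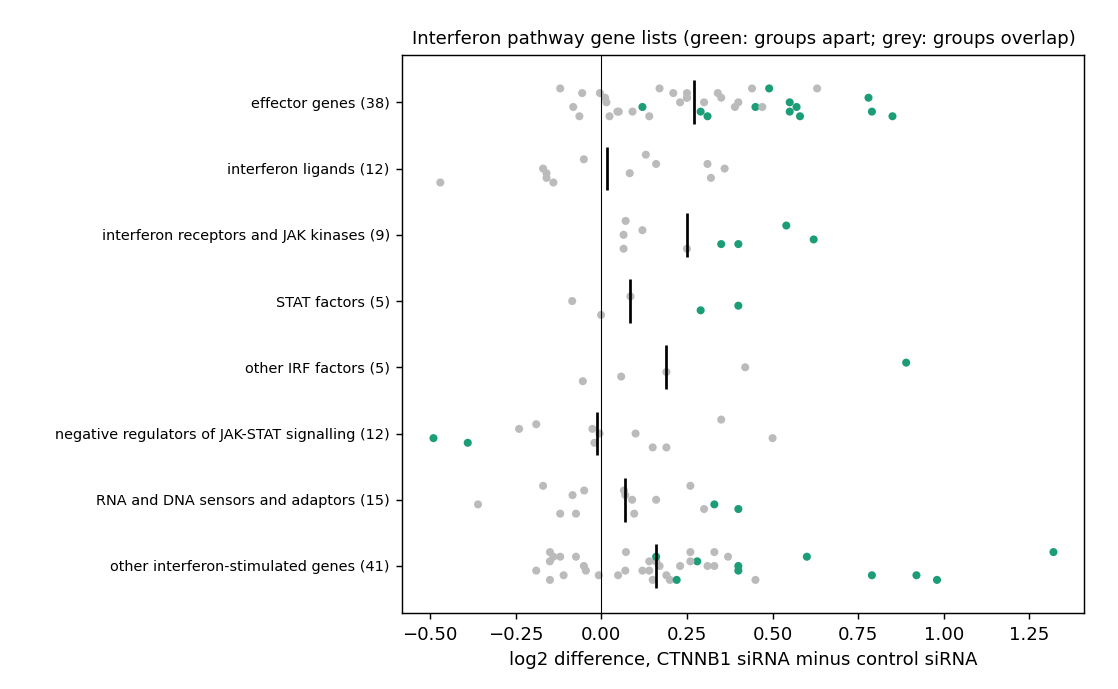
Log2 difference, CTNNB1 siRNA minus control siRNA, of each measured gene in the effector list and in 7 other lists of the interferon pathway, with the list's median as a black line and genes with groups apart in green. The medians are 0.27 for the effector genes, 0.016 for the interferon genes, 0.25 for receptors and JAK kinases, -0.013 for negative regulators and 0.16 for other interferon-stimulated genes.

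Markers of the epithelial cells themselves moved with the groups as well. Of 10 epithelial markers 9 were higher after CTNNB1 siRNA, with a median of 0.41, and 5 had groups apart and higher, against 6.86% of all genes. Without replicate 1 all 10 were higher, with a median of 0.27. CEACAM6 differed by 1.18 (SE 0.30), KRT19 by 0.96 (SE 0.36), CLDN4 by 0.67 (SE 0.24) and KRT7 by 0.33 (SE 0.14). Without replicate 1, KRT19 differed by 0.54 and CLDN4 by 0.42, while CEACAM6 differed by 1.44. The log2 of their summed linear level was 13.70 to 13.94 on the controls and 14.06 to 14.55 on the CTNNB1 siRNA arrays, highest on replicate 1. Their part in the values of the interferon-stimulated genes was not tested.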

How the data were processed

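Total RNA of 6 AGS cultures (500 ng each, per the labels' protocols) was profiled on Affymetrix Human Gene 1.0 ST arrays. The table deposited by the authors holds log2 expression for each transcript cluster (a row). RMA and, with its version, Affymetrix Expression Console 1.1 are named in the submitters' processing notes. RMA normalises arrays to a common distribution, so a shift shared by all genes would not show. Build and annotation: not given in the sources used here. The log2 scale was read from the values.

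Of 33297 clusters, 19460 were paired with exactly 1 gene symbol and tested; 1754 had several symbols and 12083 no gene. Symbols were updated through RefSeq gene identifiers for 19429. Groups were compared with limma 3.58.1 in R 4.3.3 (lmFit, eBayes, 2-sided, Benjamini-Hochberg over the 19460, threshold 0.05), with no filter, weights or block. Background shares are over 18417 genes. The procedure was tested on simulated data.

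Members, lists and neighbour pairs were chosen with earlier results of these data known. Array values were given for up to 2 members of each role with the smallest p, and up to 4 genes of each list were named by p. Receptor, kinase and STAT genes were also allowed. Others were chosen after their values were seen. The number of arrays limits the precision. Alternatives were each array left out, a replicate block, array weights, a filter on dim clusters, another prior, centring, a further quantile normalisation and the mean of a gene's clusters.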

Additional observations from a re-analysis of the deposited data

How the results depend on the processing

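Over all alternatives 0 members passed limma's threshold, with 4 to 15 members at an unadjusted limma p under 0.05. The share of all genes higher at that p also moved, from 3.07% in the reported fit to 4.21% without CTNNB1 siRNA replicate 1. It was not taken for the other alternatives, so the range of the member counts is not set against it. Of 38 members 27 kept the sign of their difference under all 13 alternatives and 11 did not, each with a reported difference between -0.12 and 0.25. The median log2 difference of the list lay between 0.20 (without control siRNA replicate 3) and 0.32, and the difference of the list means between 0.25 and 0.34. The number of members with groups apart and higher was 12 to 20 when 1 array was left out, 20 without CTNNB1 siRNA replicate 1. The share of all genes apart and higher rose there as well, from 6.86% in the reported fit to 13.4%. Genes called, each by the row that stands for it, were 1 in the reported fit, 13 with array weights and 0 without dim clusters. With 1 array left out they were 0 to 10, the 10 without CTNNB1 siRNA replicate 1. The cause was not tested.

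With array weights the sign turned for IFI44L (0.18), IFITM1 (0.14), TRIM22 (-0.0068), CMPK2 (0.05) and HERC6 (0.068). With 1 array left out, IFI44L ranged from -0.14 to 0.14, IFITM1 from -0.28 to 0.22, TRIM22 from -0.039 to 0.10, CMPK2 from -0.18 to 0.056, HERC6 from -0.25 to 0.13, IFIT5 from -0.13 to 0.16, DTX3L from -0.097 to 0.19, HERC5 from -0.10 to 0.014, SAMD9 from -0.037 to 0.74, PARP12 from -0.031 to 0.17 and XAF1 from -0.062 to 0.13.

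The neighbour ratios were also taken without 1 array, a choice made after seeing the data. Without CTNNB1 siRNA replicate 1 the sign of the difference turned for SAMD9 against SAMD9L (-0.10 to 0.12), IFI44 against IFI44L (0.25 to -0.11) and HERC5 against HERC6 (0.06 to -0.21), and without control siRNA replicate 3 for the last of these (-0.03).

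With the replicate number as a block, 0 genes were called, the list's median stayed at 0.27 and 8 members had an unadjusted limma p under 0.05. The numbers were not taken to pair the arrays: the deviations of same-numbered arrays correlated at 0.0922, 0.120 and 0.098, although every array correlated best with its own number.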
